A study of Mus musculus with 5 samples.

Results

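Dividing cells within the Fgd5 reporter-positive fraction of mouse bone marrow are described here. They were taken from the 2 reporter-positive single-cell libraries of a table of 5 libraries, as the cells in which the summed unique molecular identifiers (UMIs, each standing for 1 captured RNA molecule) of 30 cell cycle genes made up at least 0.3% of all UMIs of the cell. Of 1312 reporter-positive cells, 122 met this rule (9.30%), out of 12893 cells in all. Measured cycle UMIs chose these cells, so their cycle gene levels are given as a description without a test, and tests are given for genes outside the cycle lists, which enter the rule only through the UMI total of each cell. Every cell was taken from the marrow of mice labelled Fgd5CreERT2/+Rosa26Tomato/+ at 20 weeks of age. The first reporter-positive library held 793 Lin-kit+ cells sorted for ZsGreen, the fluorescent protein reported from the Fgd5 locus (Fgd5+), and the second held 519 reporter-positive cells that were also Sca-1+CD150+CD48- (HSC-Fgd5+). The other 3 libraries held Lin-kit+ cells, the stem and progenitor fraction of the marrow, with no selection on the reporter. The libraries were matched to the sorts by the numbers of cells the study states, and the labels of the 2 reporter-positive samples disagree between fields on which of them is which. The number of mice is not given in the sources used here, so the libraries may be technical replicates, and the table holds no ZsGreen, Cre or Tomato gene that could check the sort.

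Hematopoietic stem cells (HSCs) maintain blood formation for life, and most adult HSCs rest outside the cell cycle and divide rarely. A dividing cell passes from G1, where D-type cyclins act with the kinases Cdk4 and Cdk6, into S phase, where the Mcm helicase opens DNA and Pcna clamps the polymerases onto it, and then through G2 into mitosis, which is driven by Cdk1 with its B-type cyclins. Fgd5 encodes a guanine nucleotide exchange factor whose expression among marrow blood cells is concentrated in HSCs.

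The 4 markers of division separated the chosen cells from the rest as the rule required. Mki67, which coats mitotic chromosomes, stood at 276.6 CPM (UMIs of the gene per 1000000 UMIs summed over the cells) in the dividing and 6.59 CPM in the other cells of the Fgd5+ library, and at 293.8 and 1.13 in the HSC-Fgd5+ library. Its UMIs were found in 76.5% and 64.8% of the dividing cells of the 2 libraries, against 1.79% and 0.430% of the other cells. Top2a, the topoisomerase that untangles replicated DNA, was at 642 and 784 CPM in the dividing cells and at 30.9 and 20.3 in the others. Cdk1 was at 248.5 and 339.8 against 15.5 and 10.7, and Ccnb1, the cyclin that activates it, at 164 and 176 against 3.15 and 3.94. The 20 rule genes of G2 and mitosis had a median log2 difference of 5.70 and the 10 of S phase one of 1.50. Among 248 further cycle genes that passed the filter on low counts, the median log2 difference was 2.24.

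Promoters of 3 of these markers are shown as examples of the sequences next to the starts of the rule genes. Each window covers the 160 bases before the first start that RefSeq lists on GRCm38.p6, read 5′ to 3′ on the strand of the gene, which is the minus strand in each case. Capitals mark the letters CCAAT, which the factor NF-Y binds, TTTGAA, the cell cycle homology region, and TTTNNCGC, an E2F-like motif, searched on both strands. The windows lie at chr10:69352913-69353072, chr11:99024190-99024349 and chr7:135716380-135716539.
Cdk1: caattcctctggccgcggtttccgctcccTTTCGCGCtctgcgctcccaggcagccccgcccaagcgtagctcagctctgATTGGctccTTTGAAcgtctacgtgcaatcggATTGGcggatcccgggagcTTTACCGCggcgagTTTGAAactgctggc
Top2a: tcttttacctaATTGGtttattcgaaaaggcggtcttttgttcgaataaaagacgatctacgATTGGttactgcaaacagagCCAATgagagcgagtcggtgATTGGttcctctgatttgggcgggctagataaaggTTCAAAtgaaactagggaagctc
Mki67: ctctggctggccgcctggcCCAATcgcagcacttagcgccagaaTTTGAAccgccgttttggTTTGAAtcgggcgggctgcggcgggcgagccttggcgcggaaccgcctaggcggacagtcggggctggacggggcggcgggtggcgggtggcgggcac
In the 250 bases before the start, CCAAT was present in 21 of the 25 rule genes that had a RefSeq promoter (84%), against 34.5% of 27025 promoters. TTTGAA was present in 7 of 17 rule genes of G2 and mitosis (41.2%) and 1 of 8 of S phase (12.5%), against 16.3% of the promoters, whereas TTTNNCGC was present in 1 (5.88%) and 2 (25%), against 4.39%. A match of letters is not a measured binding site.

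Dividing cells were spread across both sorts. They made up 68 of 793 Fgd5+ cells (8.58%, 95% Wilson interval 6.82 to 10.7%) and 54 of 519 HSC-Fgd5+ cells (10.4%, 8.06 to 13.3%), intervals that cover counting error only, against 36.0%, 37.5% and 39.8% of the cells of the 3 Lin-kit+ libraries. With every cell thinned to 2000 UMIs and shallower cells left out, the shares were 8.88% and 11.0%, against 40.5%, 45.3% and 45.6%. The lowest dividing cells had 0.302% and 0.306% cycle UMIs and the highest of the other cells 0.297% and 0.273%. Between 0.3% and 0.4% lay 14 and 15 dividing cells, and between 0.2% and 0.3% lay 25 and 6 of the others. In 45 Fgd5+ and 36 HSC-Fgd5+ cells the genes of G2 and mitosis, per cell, held more of the cycle UMIs than those of S phase, in 21 and 18 they held fewer, and 2 Fgd5+ cells were tied.

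The dividing cells held more RNA. Their median was 9127 UMIs per cell against 4156 in the other Fgd5+ cells and 7831.5 against 3603 in the HSC-Fgd5+ library, ratios of 2.20 and 2.17. In the Lin-kit+ libraries the same ratio was 1.28, 1.24 and 1.28. By phase, dividing Fgd5+ cells had medians of 10085 UMIs with a G2 and mitosis majority and 7942 with an S phase majority. In the HSC-Fgd5+ library these medians were 9495.5 and 3920, so there the S phase cells lay close to the other cells. Thinned to 2000 UMIs, the median number of genes detected was 1015 and 1014.5 in the dividing against 940 and 931 in the other cells, and the mitochondrial share was 2.86% against 3.41% and 3.77% against 4.26%. A doublet caller marked 19 of the 1312 reporter-positive cells, of which 1 was dividing, and the 2 libraries shared 0 cell barcodes with each other and at most 6 with a Lin-kit+ library. Stray cells of other lineages carried most UMIs of a few genes. In the Fgd5+ library, 2 dividing cells held 217 of the 220 Mpo UMIs of the dividing cells and all 225 of Elane, and 1 of the other cells held 2178 of 2197 UMIs of S100a8.

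**Figure D1:**
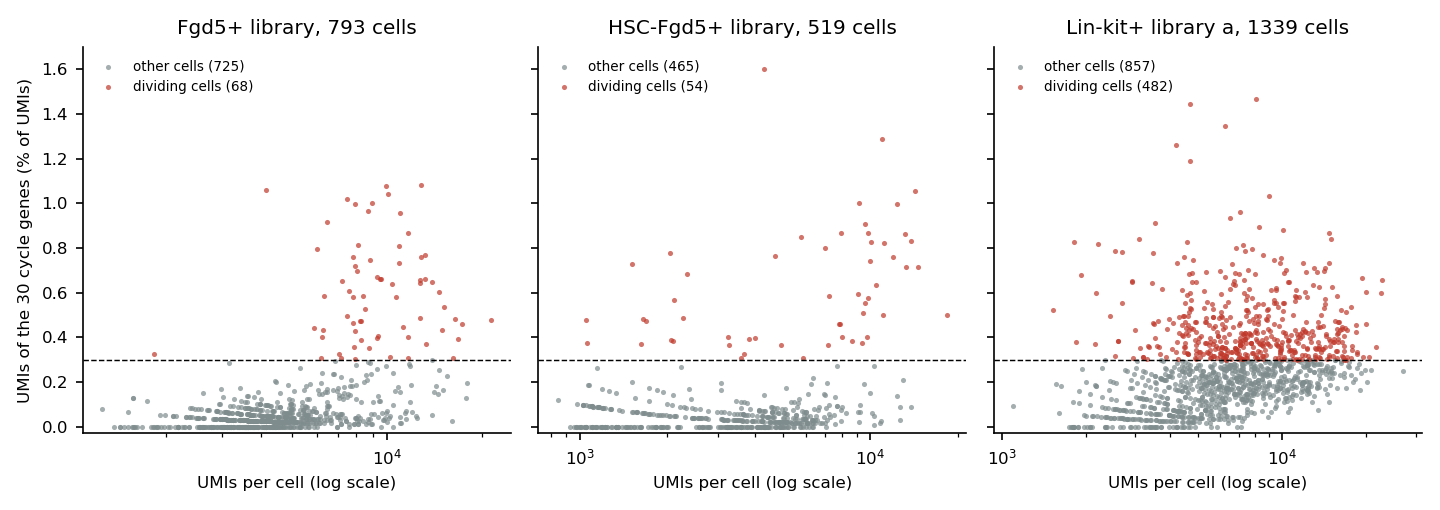
Share of UMIs in the 30 cycle genes (vertical axis, %) against UMIs per cell (horizontal axis, log scale) in both reporter-positive libraries and 1 Lin-kit+ library. Each point is a cell, red at or above the dashed threshold of 0.3%. The 68 and 54 dividing cells lie mostly at the right of their panels, and the other reporter-positive cells lie mostly near 0, whereas Lin-kit+ cells fill the range on both sides of the threshold.

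Outside the cycle genes, stem cell genes took a smaller share of the RNA of dividing cells, and genes of progenitors, respiration and nucleotide synthesis a larger one. UMIs were summed over the dividing and over the other cells of each library, and the 2 pairs of sums were compared with edgeR's quasi-likelihood test, with the library as a block. Of 8331 genes outside the cycle lists, 749 were higher (8.99%) and 719 lower (8.63%) in the dividing cells at an adjusted p under 0.05, 17.6% in all. Without the pairing of the 2 sums of a library, 487 were higher (5.85%) and 377 lower (4.53%), 10.4% in all. DESeq2 called 158 of 9792 genes higher (1.61%) and 121 lower (1.24%), 2.85% in all. These are shares of the RNA of a cell. Counted as UMIs per cell, the median gene was 1.02 higher on the log2 scale in the dividing cells, 67.4% of genes were higher and 51 (0.612%) were lower, 68.1% in all, and 210 of the 719 genes with a lower share had more UMIs per cell. Among cells with at least 7000 UMIs, 59 and 31 of them dividing and 104 and 34 not, 240 of 5319 genes were higher (4.51%) and 351 lower (6.6%), 11.1% in all. Without 9 cells that held many UMIs of other lineages, 776 of 8295 were higher (9.36%) and 770 lower (9.28%), 18.6% in all.

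Of 50 stem cell genes, 48 passed the filter on low counts, and 26 of them had a lower and 0 a higher share in the dividing cells, whereas per cell 8 were lower and 18 higher. Their median log2 difference was -0.71, against -0.02 over all genes tested. The list summed to 3482 CPM in dividing and 6022 in other Fgd5+ cells, and to 3640 and 6388 in the HSC-Fgd5+ library, while the dividing cells of the Lin-kit+ libraries reached 362 to 408. In cells with at least 7000 UMIs, 25 of 40 were lower and 0 higher, and DESeq2 called 10 lower. The summed level in dividing reporter-positive cells therefore lay between that of the other cells of the same sort and that of dividing Lin-kit+ cells.

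Procr, the endothelial protein C receptor used to isolate HSCs, was at 28.1 CPM in dividing and 139.7 in other Fgd5+ cells, and at 43.4 and 167 in HSC-Fgd5+ cells. Both dividing sums lay below both sums of the other cells, a log2 difference of -2.19 ± 0.21 (SE, adjusted p = 3.75e-08). Mllt3, a reader of acylated histones that helps maintain HSCs, was at 87.3 against 333 and at 86.9 against 352 CPM (-2.01 ± 0.14, adjusted p = 2.76e-10). Ly6a, which encodes Sca-1, a protein of the HSC-Fgd5+ gate, was at 108 against 298 and at 107 against 299 (-1.51 ± 0.14, adjusted p = 1.74e-08). These 3 genes were lower by close to the same amount in both libraries, although Sca-1 was gated in only 1 of them.

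Hlf, a transcription factor of stem cells, was at 154 and 176 CPM in the dividing and 332 and 335 in the other cells (-1.08 ± 0.12, adjusted p = 6.01e-07), and per cell it was level, at 1.53 against 1.60 and 1.28 against 1.28 UMIs. Mecom, needed for HSC self-renewal, differed by -0.85 and Meis1, a partner of Hox proteins, by -0.46 in CPM, but by 0.19 and 0.58 in UMIs per cell. DESeq2 called neither (adjusted p = 0.0860 for Mecom and 0.550 for Meis1). Slamf1, which encodes the gated CD150, was lower at 16.3 and 20.4 against 39.5 and 42.3 CPM (-1.23 ± 0.30, adjusted p = 0.00478, but 0.644 in DESeq2). Kit, the gated receptor of stem cell factor, missed the threshold at a difference of -0.27 in CPM (adjusted p = 0.214), with 0.77 in UMIs per cell. Vwf, which marks platelet-biased HSCs, missed it at -0.13 (adjusted p = 0.735), with 0.92 per cell, and was lower among cells with at least 7000 UMIs (-0.84, adjusted p = 0.0133). Fgd5 itself was too sparse for the test, with 3 UMIs in the dividing and 44 in the other cells, a ratio of 0.336 in CPM with a counting interval of 0.0668 to 1.05.

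**Figure D2:**
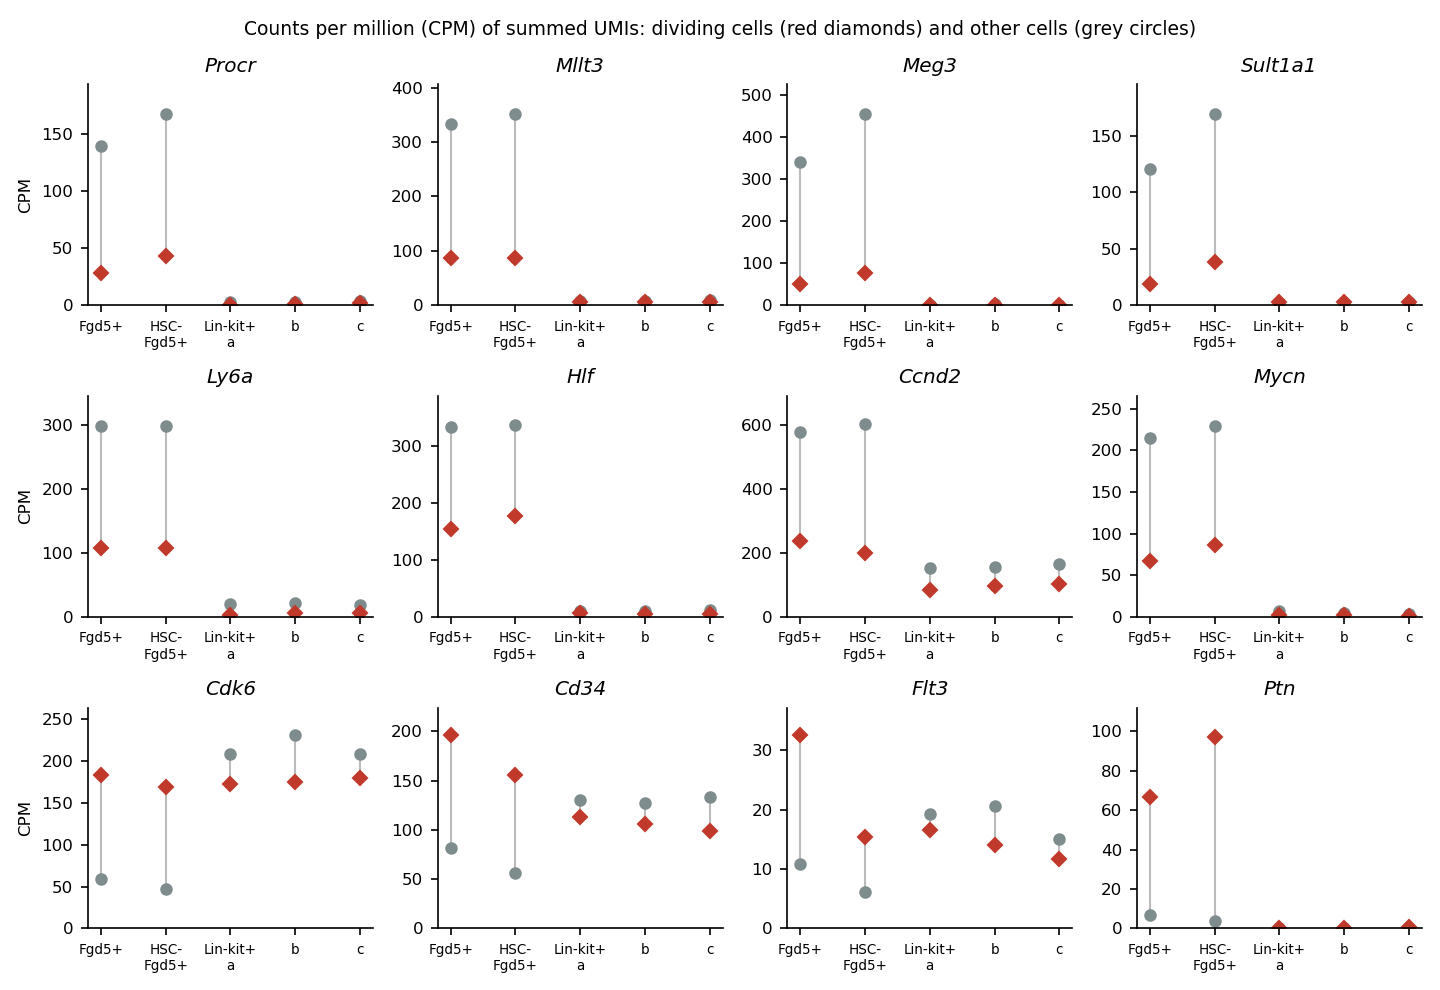
CPM (vertical axes) of 12 genes in the 5 libraries, with red diamonds for the sum over dividing cells and grey circles for the sum over the other cells. Procr, Mllt3, Meg3, Sult1a1, Ly6a, Hlf, Ccnd2 and Mycn are lower and Cdk6, Cd34, Flt3 and Ptn higher in the dividing cells of both reporter-positive libraries, a pattern that in UMIs per cell is absent for Hlf. The Lin-kit+ libraries are near 0 for Procr, Meg3 and Ptn.

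A set of 51 genes had fewer UMIs per dividing cell even though these cells held more RNA, and 8 of them were stem cell genes. Meg3, an imprinted noncoding RNA, averaged 0.50 UMIs per dividing and 1.64 per other Fgd5+ cell, and 0.556 and 1.73 in the HSC-Fgd5+ library. In CPM Meg3 differed by -2.71 ± 0.15 (adjusted p = 4.39e-12) and in UMIs per cell by -1.68 (adjusted p = 2.69e-18). Sult1a1, a sulfotransferase, averaged 0.191 against 0.582 and 0.278 against 0.645 UMIs per cell, a per cell difference of -1.41. Procr averaged 0.279 against 0.673 and 0.315 against 0.639, and Mllt3 0.868 against 1.61 and 0.630 against 1.34. Ltb, a lymphotoxin subunit, and Clec1a, a C-type lectin receptor, differed by -0.98 and -0.84 per cell. Among the 21 of these genes with at least 300 UMIs in the other cells, S100a8 left out, the steepest was Tcp11l2, with 6 UMIs in all dividing cells, at 4.44 and 7.66 CPM against 72.2 and 88.4 (-3.82 ± 0.36, adjusted p = 3.58e-08). Beyond the stem cell list, Pim1, a cytokine-induced kinase, and Aldoa, a glycolytic aldolase, differed by -0.91 and -0.63 per cell.

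**Figure D3:**
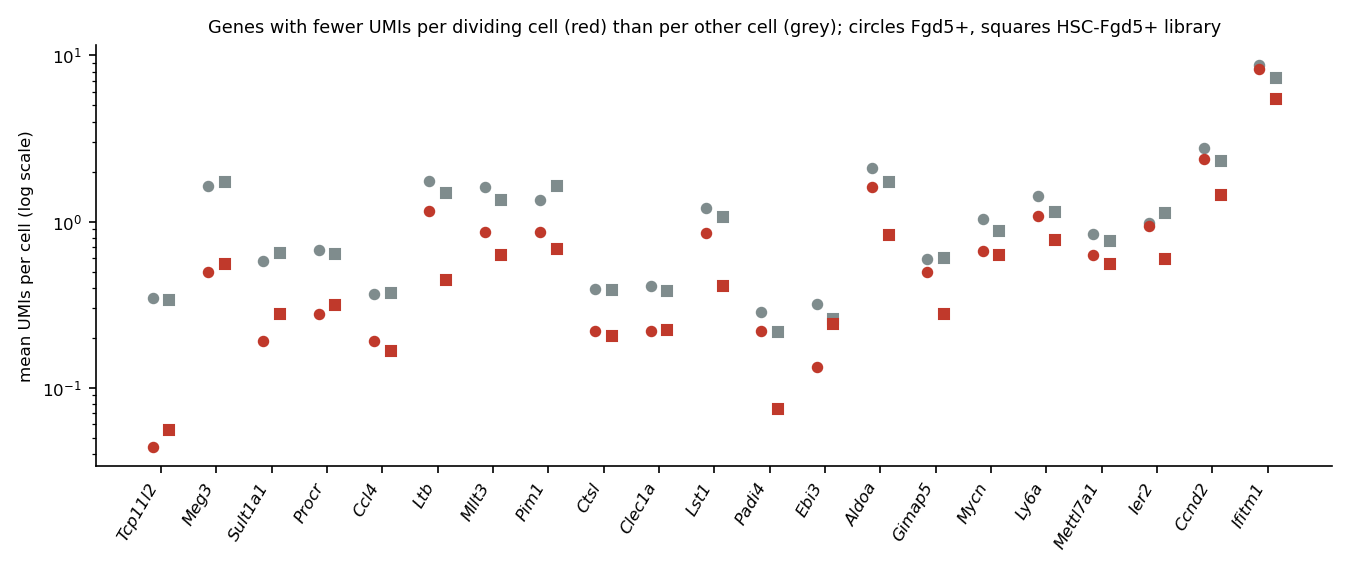
Mean UMIs per cell (log scale) of the 21 genes with fewer UMIs per dividing cell that had at least 300 UMIs in the other cells, S100a8 left out because 1 cell held nearly all of it. Red symbols are dividing and grey symbols other cells, circles the Fgd5+ and squares the HSC-Fgd5+ library. Genes are ordered from the largest difference, with Tcp11l2, Meg3 and Sult1a1 among the first.

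Regulators of G1 moved in opposite directions. Of 15 G1 genes tested, the kinase genes Cdk2, Cdk4 and Cdk6 rose, Ccnd2, Mycn and Mxd4 fell, and the median was -0.37. Cdk6 was at 183 and 169 CPM in the dividing and 59.6 and 47.3 in the other cells (1.65 ± 0.16, adjusted p = 3.75e-08), beside 173 to 180 in dividing Lin-kit+ cells. The main test against dividing Lin-kit+ cells called Cdk6 lower, a call lost when scaled by library totals. Against the other reporter-positive cells, Cdk4 differed by 0.86 and Cdk2 by 0.82 in CPM. Ccnd2, a D-type cyclin partner of Cdk4 and Cdk6, was at 238 and 199 against 578 and 603 CPM (-1.45 ± 0.11, adjusted p = 6.48e-10). Ccnd2 was also lower in UMIs per cell in both libraries (-0.41, adjusted p = 0.00459). Mycn, a Myc family transcription factor, was at 66.6 and 86.9 against 215 and 230 (-1.61 ± 0.16, adjusted p = 7.23e-08). Myc itself missed the threshold at -0.37 (adjusted p = 0.193), with 0.68 in UMIs per cell, and Ccnd1 missed it at -0.72 (adjusted p = 0.0647).

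Among 18 genes of quiescence and of inhibitors of cyclin-dependent kinases (CDKs), 4 fell and 1 rose. Cdkn1c, which encodes p57, an inhibitor tied to HSC quiescence, was at 13.3 and 5.11 CPM in the dividing and 30.6 and 28.7 in the other cells (-1.58 ± 0.38, adjusted p = 0.00471, but 0.476 in DESeq2). Txnip, an inhibitor of thioredoxin and of glucose uptake, was at 172 and 284 against 475 and 592 (-1.32 ± 0.11, adjusted p = 6.66e-09). Klf6 and Tsc22d3 fell by 1.03 and 0.93 on the log2 scale. Cdkn1b, which encodes p27, stood at -0.39 (adjusted p = 0.408). Cdkn2d, which encodes the Cdk4 and Cdk6 inhibitor p19, went the other way at 0.85 (adjusted p = 4.88e-04, but 0.139 in DESeq2), a direction that was -0.67 when only the S phase dividing cells were compared with the rest.

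Immediate early genes, which respond within minutes to stimulation or to cell handling, were lower in share. Of 15 tested, 9 fell and 0 rose, with a median of -1.07, and per cell 1 fell and 3 rose. Junb was at 53.3 and 48.5 CPM in the dividing and 121 and 149 in the other cells (-1.40 ± 0.19, adjusted p = 9.19e-06). Fos was at 90.2 against 119 in the Fgd5+ and 28.1 against 198 in the HSC-Fgd5+ library (-1.20 ± 0.27, adjusted p = 0.00277, but 0.860 in DESeq2), so its size differed between the libraries. Ier2 fell both in share (-1.46) and per cell (-0.42).

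Genes of MHC class I, MHC class II and interferon response also fell, 13 of 24 with 1 rise and a median of -0.53, although in cells with at least 7000 UMIs 4 fell and 2 rose. Ifitm1, an interferon-inducible membrane protein, was at 836 and 754 CPM against 1828 and 1924 (-1.27 ± 0.07, adjusted p = 1.59e-12), and its UMIs per cell were also fewer. B2m, the light chain of MHC class I, differed by -0.20 in share (adjusted p = 5.53e-04, but 0.198 without the pairing of sums) but by 0.83 per cell, and by 0.010 among cells with at least 7000 UMIs. The single rise was Ifi27l2a, where 1 dividing Fgd5+ cell held 22 of 40 UMIs.

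Some multipotent progenitor genes were higher. Of 13 tested, 6 rose, 1 fell and the median was 0.46, but DESeq2 called 2 higher, and 2 of 10 were higher among cells with at least 7000 UMIs. The list summed to 2253 CPM in dividing and 1570 in other Fgd5+ cells. In the HSC-Fgd5+ library the gap was smaller, at 1655 and 1534. Cd34, a sialomucin absent from the most primitive adult mouse HSCs, was at 197 and 156 CPM in the dividing and 81.9 and 55.8 in the other cells (1.29 ± 0.15, adjusted p = 9.33e-07). Both dividing sums exceeded both sums of the other cells and lay above the 98.4 to 113 of dividing Lin-kit+ cells. From the latter Cd34 did not differ past the threshold in the main test (0.21, adjusted p = 0.286), but it was higher past it when scaled by library totals. Most of the list was lower than in dividing Lin-kit+ cells, 9 of 15 genes with 2 higher and a median of -1.88. Its sum there was 7190 to 7672 CPM, against 2253 and 1655 in the dividing reporter-positive cells. Flt3, a receptor gained on leaving the stem cell state, was at 32.5 and 15.3 against 10.9 and 6.20 (1.46 ± 0.38, adjusted p = 0.00825), a call lost with DESeq2 (adjusted p = 0.775) and without the pairing of sums (adjusted p = 0.0583). Plac8 rose by 2.42, and by 1.57 once the stray cells of other lineages were left out. Cd27, a costimulatory receptor, fell by 0.50 in share, but differed by 0.54 in UMIs per cell. Cd48, whose protein the HSC-Fgd5+ gate excluded, had 16 and 3 UMIs in the dividing and 10 and 1 in the other cells, a ratio of 8.52 in CPM with a counting interval of 3.85 to 19.8, and was too sparse for the test.

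Markers of other lineages were first set against the other reporter-positive cells. Of 20 genes of neutrophil and monocyte progenitors, 6 passed the filter, and 4 rose and 1 fell. The 2 libraries differed, as the list summed to 2513 CPM in dividing against 1217 in other Fgd5+ cells. In the HSC-Fgd5+ library it summed to 994 against 1194. Without the cells of other lineages, Irf8, Nkg7 and Calr rose and Prtn3 fell among 5 tested. Mpo, the myeloperoxidase of granule-forming cells, was at 325.4 CPM in dividing Fgd5+ cells and at 0 in dividing HSC-Fgd5+ cells, against 4.58 and 9.58 in the others. Of 16 megakaryocyte and platelet genes 1 rose, Pf4, and 1 fell. Of 10 erythroid and 3 endothelial genes tested, 0 rose and 0 fell. Without the cells of other lineages 3 of the erythroid genes were higher, namely the transcription factor gene Gata1 (1.62, adjusted p = 0.0440), the water channel gene Aqp1 (1.06, adjusted p = 0.0387) and Hemgn (0.71, adjusted p = 0.0402), with 0 lower. Of 3 lymphoid genes Ccl5 fell, with 0 UMIs in the dividing cells and with 32 of 41 and 21 of 30 UMIs in single cells of the others. Against dividing Lin-kit+ cells, 11 of 18 megakaryocyte and platelet genes were higher and 1 lower. That list summed to 1673 and 1497 CPM, against 514 to 557 in dividing Lin-kit+ cells. The erythroid list summed to 1981 and 2593 CPM against 426 to 766, with 3 of 19 genes higher and 8 lower.

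Respiratory chain genes encoded in the nucleus rose, and those encoded in mitochondrial DNA did not. Of 77 nuclear genes of oxidative phosphorylation, 44 rose and 2 fell, with a median of 0.41, and the list summed to 27205 CPM in dividing against 20922 in other Fgd5+ cells and to 27435 against 20520 in the HSC-Fgd5+ library. Among cells with at least 7000 UMIs, 16 rose and 1 fell, and DESeq2 called 15 higher. Cycs, which encodes cytochrome c, was at 300.3 and 197 CPM against 128 and 122 (0.99 ± 0.14, adjusted p = 1.19e-05), and Ndufa4 at 824 and 833 against 508 and 499 (0.67 ± 0.08, adjusted p = 8.07e-07). Of the 13 genes encoded in mitochondrial DNA, 8 fell and 0 rose, with a median of -0.21, whereas per cell all 13 were higher. The largest of these falls was mt-Co1, the catalytic subunit of cytochrome c oxidase, at 5081 and 6368 against 7261 and 9690 CPM (-0.61 ± 0.03, adjusted p = 5.37e-12). Without the pairing of sums, 1 of the 13 fell.

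Nucleotide and one-carbon synthesis rose, 13 of 26 genes outside the cycle lists with 0 falls and a median of 0.72. Mthfd2, a mitochondrial enzyme of folate metabolism, was at 31.1 and 17.9 CPM against 7.16 and 3.94 (2.08 ± 0.43, adjusted p = 0.00116, but 0.267 in DESeq2). Shmt1, which feeds one-carbon units into thymidylate synthesis, was at 29.6 and 40.9 against 16.3 and 11.8 (1.17 ± 0.33, adjusted p = 0.0135, but 0.667 in DESeq2). Nme1, a nucleoside diphosphate kinase, rose by 0.67. Of 25 chaperone genes 9 rose and 0 fell, led by Hsp90aa1 at 1311 and 1323 against 712 and 776 CPM (0.78 ± 0.07, adjusted p = 8.03e-09). Among the largest cells, those with at least 7000 UMIs, 3 of 20 nucleotide genes outside the cycle lists and 3 of 25 chaperone genes were higher. Glycolysis was divided, with Tpi1, Gapdh and Pgam1 higher and Slc2a1, Slc2a3, Aldoa, Aldoc and Ldhb lower among 19 genes, and of 43 genes of ribosome biogenesis 5 rose, a share near that of all genes, and 0 fell. Neither DESeq2 nor the comparison of cells with at least 7000 UMIs called any of the ribosome biogenesis genes.

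**Figure D4:**
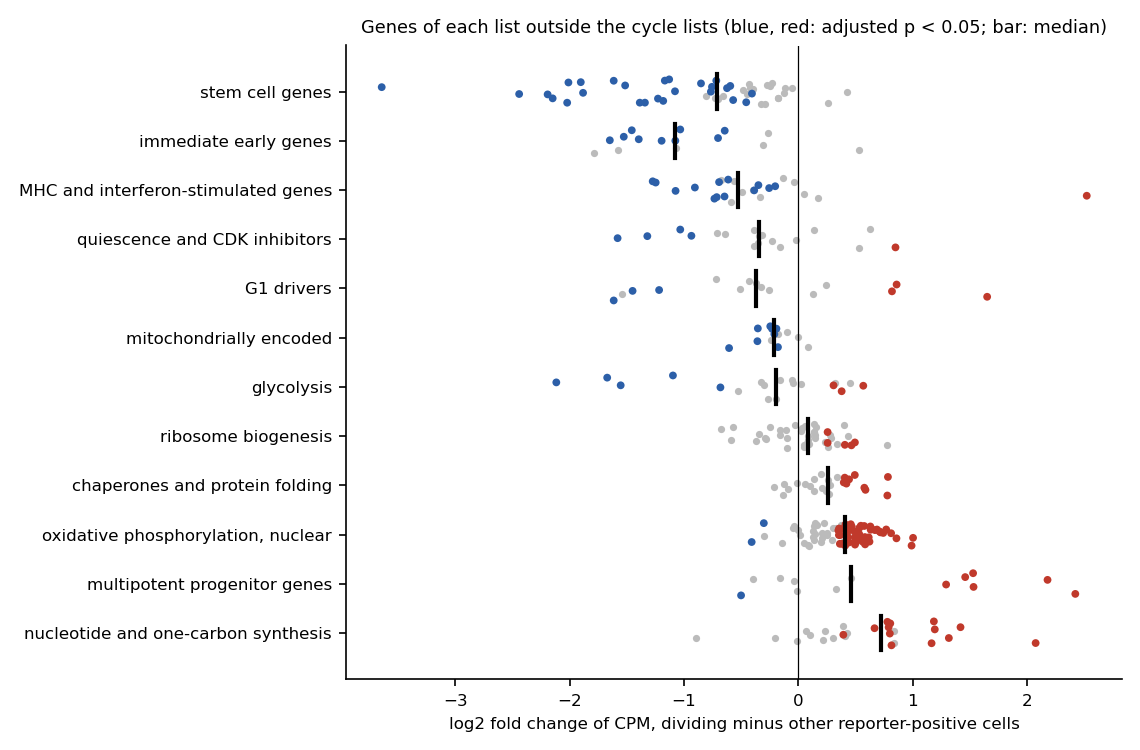
Log2 differences in CPM between dividing and other reporter-positive cells (horizontal axis) for the genes of 12 lists outside the cycle lists. Each point is a gene, coloured where its adjusted p is under 0.05, blue for lower and red for higher, and the bar is the median of the list. Stem cell genes lie furthest to the left at -0.71 apart from immediate early genes at -1.07, and nucleotide synthesis furthest to the right at 0.72; per cell the stem cell and mitochondrially encoded lists have medians above 0.

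By size, the 10 largest rises outside the cycle lists, among genes with at least 50 UMIs that moved the same way in both libraries by CPM, were Mxd3, Knstrn, Aunip, Ptn, Gpsm2, Gsg2, Mns1, Mnd1, Trim59 and Ifi27l2a, each of them also past the threshold in DESeq2. Several are themselves cell division genes that the cycle lists did not hold. Mxd3, a Max dimerization protein of the Myc network, was at 48.8 and 61.3 CPM against 0.859 and 0, and differed by 6.33 ± 0.55 (adjusted p = 1.10e-08). Knstrn, a kinetochore and spindle protein, was at 176 and 166 against 10.0 and 5.07 (4.33 ± 0.22, adjusted p = 1.31e-12). Gpsm2 orients the spindle and Gsg2 encodes haspin, a mitotic kinase.

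Ptn, which encodes the secreted growth factor pleiotrophin, stood out from that group. It was at 66.6 and 97.1 CPM in the dividing and 6.87 and 3.94 in the other cells (3.68 ± 0.31, adjusted p = 8.23e-09). Its UMIs came from 25 dividing cells in each library with at most 4 in any one cell. Dividing Lin-kit+ cells held 0, 0.248 and 0.543 CPM, a difference of 7.11 ± 0.42 from the dividing reporter-positive cells (adjusted p = 1.54e-05).

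Under the same rule, which leaves out Mpo and S100a8 because their direction differed between the libraries, the 10 largest falls were Ccl5, Inhba, Gpx3, Gdpgp1, Creb5, Cyp26b1, Gbp4, Tcp11l2, Tns2 and Gimap4. Of these, 2 passed the threshold in DESeq2, Creb5 and Tcp11l2, and all but Tcp11l2 had at most 1 UMI in the dividing cells. Inhba, a subunit of activin, Gpx3, a glutathione peroxidase, and Gdpgp1, a GDP-glucose phosphorylase, had 0 UMIs in dividing cells, and were at least 4.19-fold, 3.72-fold and 3.58-fold lower at a floor of 3 counts over both libraries. Creb5 had 1 UMI, a ratio of 0.0307 with a counting interval of 0.000771 to 0.173, and Cyp26b1, an enzyme that degrades retinoic acid, had 1, a ratio of 0.0405 with an interval of 0.00102 to 0.230.

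The dividing cells also differed among themselves by phase. Between the G2 and mitosis majority and the S phase majority, 3318 genes outside the cycle lists were tested, 55 were higher (1.66%) and 79 lower (2.38%) in G2 and mitosis, 4.04% in all. Ccnd1, the G1 cyclin, was at 14.6 and 6.68 CPM in the G2 and mitosis cells and 75.6 and 65.1 in the S phase cells (-2.53 ± 0.53, adjusted p = 1.93e-04). Shmt1 fell by 2.09 and Ly6a by 1.02 in the same direction. Arl6ip1, a membrane-shaping protein of the endoplasmic reticulum, was at 940.5 and 1082 in G2 and mitosis against 203 and 379.9 in S phase (1.93 ± 0.18, adjusted p = 2.40e-24). H1f0, a linker histone, was at 334 and 468 against 81.4 and 86.8 (2.24 ± 0.28, adjusted p = 8.93e-13). Fzr1, an activator of the anaphase-promoting complex, was at 98.0 and 63.5 against 5.81 and 10.9 (3.46 ± 0.72, adjusted p = 7.48e-05). Its S phase values rest on very few UMIs in 21 and 18 cells, so the size of the difference is imprecise. None of the 26 stem cell genes tested was higher in G2 and mitosis and 2 were lower.

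Compared with the 4465 dividing cells of the Lin-kit+ libraries, the dividing reporter-positive cells differed in 34.9% of 10213 genes outside the cycle lists, 1583 higher (15.5%) and 1982 lower (19.4%). Scaling by library totals moved the median of all genes from 0.03 to 0.58 and the split to 3607 higher and 847 lower. Under either scaling, stem cell genes were higher, 42 of 46 with 0 lower and a median of 3.46 (44 higher with library totals). Procr was at 28.1 and 43.4 CPM against 0.476, 0.994 and 1.69 (4.19, adjusted p = 2.81e-04), and Mecom at 96.2 and 135 against 0.951, 3.11 and 1.99 (5.16, adjusted p = 2.27e-05). The 5 largest rises named by size were Meg3, Iigp1, Prkcdbp, Ptn and Ndn. All 20 genes of neutrophil and monocyte progenitors were lower, and Chil3, Lcn2, Prss34 and Ltf, genes of late neutrophils and basophils, had 0 UMIs in the dividing reporter-positive cells. Nuclear genes of oxidative phosphorylation were lower in 69 of 77, with a median of -0.76 that became -0.21, with 29 lower and 3 higher, under library totals.

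The effect of division was also set against that in Lin-kit+ cells, as the difference of the 2 differences in 1 fit of all 5 libraries. Of 11433 genes outside the cycle lists, 673 had a higher (5.89%) and 398 a lower (3.48%) effect in the reporter-positive cells, 9.37% in all. Oxidative phosphorylation was higher in 44 of 77 nuclear genes with 0 lower, nucleotide synthesis in 14 of 26 outside the cycle lists with 0 lower, and multipotent progenitor genes in 8 of 15 with 0 lower. The 8 include Cd48, which was too sparse for the test within the reporter-positive libraries. Cdk6 also had a higher effect. In Lin-kit+ libraries it was at 173, 175 and 180 CPM in dividing against 208, 231 and 208 in other cells. That direction was opposite to the one in the reporter-positive cells. Of 50 stem cell genes, 0 had a higher and 4 a lower effect. The other cells of the Lin-kit+ libraries had medians of 0.172%, 0.167% and 0.176% cycle UMIs, against 0.0318% and 0.0281% in the reporter-positive libraries. The share of this gap in the differences above was not tested.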

How the data were processed

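Single cells were captured on the Chromium system. Per the submitters' processing notes, the authors used Cell Ranger (versions 1.3 and 2.1, build mm10) and Seurat 2.3.4, and the table they deposited holds raw, unscaled UMI counts of 15287 genes in 12893 cells. Cell names carry 1 of 5 suffixes, which were matched to the sorts by the stated cell numbers, and the 3 Lin-kit+ libraries were named a to c. Library totals were 2166655 to 36080242 UMIs. Sparse genes such as Fgd5 were missed in most reporter-positive cells, and the reason was not tested.

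Cells were not replicates. UMIs were summed over the dividing and the other cells of each library and compared by the quasi-likelihood test of edgeR 4.0.16 in R 4.3.3, after filterByExpr and TMM scaling, with Benjamini-Hochberg adjustment over all genes. Adjusted p-values are from this test unless DESeq2 1.42.0 is named. The 2 sums of a library come from the same suspension, so the library was a block. P-values therefore rest on the spread between 2 pairs of sums, which may be technical, and largely on a spread that edgeR pools over genes. The 2 pairs come from different sorts, so they are not replicates of a single condition. CPM values are the sums scaled to 1000000 by their own totals, and fold changes are log2 values with standard errors. Thinning, Scrublet (scanpy 1.11.5) and intervals used Python 3.11.15. The scripts were tested on simulated data.

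The members and lists were chosen with earlier results of these data known. Named genes outside the cycle lists were the 10 with the largest fitted difference each way past the threshold with at least 50 UMIs and the same direction in both libraries, the 5 each way against dividing Lin-kit+ cells, and stem cell, G1 and progenitor genes. Other genes named as examples were chosen from the lists after their values were seen. The comparison of division effects between sorts, UMIs per cell, cells with at least 7000 UMIs, phase-limited fits and removal of cells of other lineages were added after seeing the data. Genes that share reads with close copies, such as MHC class I genes, are uncertain. Some genes are not reported here.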

Additional observations from a re-analysis of the deposited data

Results flagged for a closer look

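Each gene below was marked because the effect of division in the reporter-positive libraries differed from that in the Lin-kit+ libraries, by the interaction in an edgeR quasi-likelihood fit of all 5 libraries at an adjusted p under 0.05. The value is the first effect minus the second on the log2 scale, and 38 of the named genes met the criterion. Over all 11433 genes outside the cycle lists, 9.37% met it. Some named genes were chosen by the size of their effect in the reporter-positive cells of the same data. That choice favours a larger effect there, so the 38 cannot be read against the share of all genes. The cells below the cycle threshold held more cycle UMIs in the Lin-kit+ libraries, and the part of that gap in these values was not tested.

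In the group of mitotic and other strongly rising genes, the rise was larger in reporter-positive cells for Mxd3 (2.86), Knstrn (3.30), Aunip (3.21), Gpsm2 (1.75), Gsg2 (2.08), Mns1 (2.45), Mnd1 (2.71), Trim59 (1.26) and Ifi27l2a (2.31). Multipotent progenitor genes and Mpo went up in the reporter-positive and less or not in the Lin-kit+ libraries, namely Cd34 (1.57), Flt3 (1.83), Cd48 (2.72), Plac8 (2.74) and Mpo (5.41), where stray myeloid cells held most Mpo UMIs and part of those of Plac8. The kinase genes Cdk6 (1.89) and Cdk4 (0.81) followed the same pattern. Cd48 was too sparse for the test within the reporter-positive libraries. It was tested here only because this fit also held the Lin-kit+ libraries, so its value rests on few reporter-positive UMIs.

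Metabolic and folding genes with a higher effect in reporter-positive cells were Cycs (0.79), Atp5g1 (0.48), Mthfd2 (1.35), Shmt1 (1.15), Hspd1 (0.56) and Hsp90aa1 (0.66). Of these, Atp5g1 (-0.11), Shmt1 (-0.02) and Hspd1 (-0.13) did not rise in the Lin-kit+ libraries. Of all 38 flagged genes, 12 had effects of opposite sign in the reporter-positive and Lin-kit+ libraries. Among genes that fell in reporter-positive cells, the values were negative for Ccnd2 (-0.77), Mllt3 (-1.40), Sult1a1 (-2.54), Txnip (-0.65), Plk2 (-4.06), Junb (-0.74), Fos (-1.50), Ier2 (-1.26), Ifitm1 (-0.31) and B2m (-0.13), and for Tcp11l2 (-2.98) and Gbp4 (-3.89). Cdkn2d (-0.85) rose in both sorts, by less in the reporter-positive cells. Inhba (-10.44), Gpx3 (-8.48) and Gdpgp1 (-7.84) had 0 UMIs in the dividing reporter-positive cells, so their fitted values depend on the prior count and are no bounds.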

How the results depend on the processing

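Over 75 genes, 1313 of 1437 alternative values of single genes kept their direction and side of the threshold. The counts of genes called are not among these values. Counts of genes outside the cycle lists, 749 higher and 719 lower, moved to 158 and 121 with DESeq2, 364 and 340 with S phase cells only, 240 and 351 in cells with at least 7000 UMIs, 368 and 423 at a cycle threshold of 0.5%, 5619 and 51 in UMIs per cell, and 487 and 377 without the block that pairs the sums of a library. Leaving out 1 reporter-positive library, with the Lin-kit+ libraries pooling the spread, gave 396 to 590 higher and 370 to 543 lower, the lowest without the Fgd5+ library. Against dividing Lin-kit+ cells, 1583 higher and 1982 lower became 3607 and 847 with library totals and 925 and 1187 at 0.5%, and leaving out 1 library gave 666 to 1691 and 1392 to 2102, with 666 higher without the Fgd5+ and 1054 without the HSC-Fgd5+ library. The mean share of dividing cells was 9.49%, 11.6% at a threshold of 0.2% and 5.29% at 0.5%, where the Lin-kit+ libraries held 9.63% to 13.4%. The mean UMI ratio of 2.18 became 2.14, 2.45, 2.21 with a filter on cells and 2.20 without doublets.

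Differences that turned sign in UMIs per cell were B2m (0.83), Cd27 (0.54), Gata2 (0.41), Kit (0.77), Mecom (0.19), Meis1 (0.58), Myc (0.68), Ndn (0.32) and Vwf (0.92). In cells with at least 7000 UMIs Atp5g1 (-0.064) and B2m (0.010) turned, at 0.5% Hspd1 (-0.044) and Mpo (-4.66), in S phase cells Cdkn2d (-0.67), and Mpo ran from -8.83, a fitted value that rests on 0 UMIs, without the Fgd5+ library to 6.07 without the HSC-Fgd5+ library. Apart from the settings built to change the scale, the samples or the cells, the cause was not tested. The 2 pairs of sums and the sparse counts limit how small a difference can be seen.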
